A study of Mus musculus with 12 samples.

Results

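The genes described here make the working parts of the lysosome other than the cathepsins: 34 genes for acid hydrolases, for the proteins that assist them, for proteins of the lysosomal membrane and for 2 regulators, chosen by name with no measured value in the rule. Array probes were tied to genes through transcript accessions, and 33 of the 34 genes had such a probe among the 19802 genes tested. Cd68, a heavily glycosylated membrane protein of macrophage endosomes and lysosomes, was not analysed here. All 33 were well above background on all 12 arrays, so each value below is a measured level. Microglia from mixed glial cultures of newborn C57BL/6 mouse brain were given supernatant of Th1 cultures or of Th17 cultures, and the controls, labelled untreated, received T cell medium. RNA was taken after 16 h in 4 independent experiments, numbered 12, 13, 14 and 16, with 1 array per group and experiment (n = 4 per group throughout). The cells of all 3 groups were primary cells shaken off the glial layer and rested for a day, so they had left the brain some time before treatment. The supernatant of restimulated Th1 cells was diluted with an equal volume of medium, and the control medium likewise.

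The lysosome is the acidic compartment in which cells break down what they take up and what they recycle. Its hydrolases are made in the endoplasmic reticulum, are mostly tagged with mannose 6-phosphate, and are carried to an organelle whose membrane proteins resist digestion and hold the proton pump, channels and transporters. Inherited loss of single hydrolases causes storage diseases in which undigested lipid or sugar chains fill cells, and microglia, which clear debris and myelin, are among the cells affected. Many lysosomal genes share a short promoter sequence, the CLEAR element, that is bound by the transcription factor TFEB.

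To show which of these genes carry that sequence at their start site, 300 bases of promoter, from 250 before to 50 after each annotated start, were read from RefSeq (build GRCm38.p6). A promoter was found for 33 of the 34 genes, 39 windows in all, with Asah1 the gene left without a window. The E-box core CACGTG stood in 9 of the 39 windows (23.1%, those of Arsa, Cln3, Gaa, Gla, Glb1, Lamp1, Mcoln1, Naglu and Sgsh) and in 7.15% of all 32851 promoter windows. The longer TCACGTGA, the core of the CLEAR element, which contains CACGTG, stood in 3 windows (7.7%, against 0.97% of all), and TTCNNNGAA, the pattern of the gamma-activated sequence, in 2 (5.1%, against 8.3% of all). All 3 patterns read the same on both strands. Windows of 5 genes are shown. Gla, Mcoln1 and Cln3 hold the longer motif, and none of them was called in any comparison. Lipa and Acp2 were the members that fell and rose most clearly. Capitals mark matches to the 3 patterns. Gla lies at chrX:134600956-134601255 on the minus strand, Mcoln1 at chr8:3500269-3500568 on the plus strand, the Cln3 window with the motif at chr7:126583187-126583486 on the minus strand, Lipa at chr19:34527425-34527724 on the minus strand and Acp2 at chr2:91202662-91202961 on the plus strand.
Gla: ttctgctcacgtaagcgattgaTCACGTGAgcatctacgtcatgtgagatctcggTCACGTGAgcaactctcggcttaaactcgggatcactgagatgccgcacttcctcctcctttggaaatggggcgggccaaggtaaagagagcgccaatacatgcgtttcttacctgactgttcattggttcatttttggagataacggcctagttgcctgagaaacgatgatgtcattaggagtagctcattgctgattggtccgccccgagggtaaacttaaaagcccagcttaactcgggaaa
Mcoln1: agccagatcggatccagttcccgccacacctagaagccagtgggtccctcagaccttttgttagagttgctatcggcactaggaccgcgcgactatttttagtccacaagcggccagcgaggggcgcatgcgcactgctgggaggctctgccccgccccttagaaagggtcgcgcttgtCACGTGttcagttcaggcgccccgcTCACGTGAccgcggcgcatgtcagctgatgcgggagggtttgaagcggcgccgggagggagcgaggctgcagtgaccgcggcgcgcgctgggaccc
Cln3: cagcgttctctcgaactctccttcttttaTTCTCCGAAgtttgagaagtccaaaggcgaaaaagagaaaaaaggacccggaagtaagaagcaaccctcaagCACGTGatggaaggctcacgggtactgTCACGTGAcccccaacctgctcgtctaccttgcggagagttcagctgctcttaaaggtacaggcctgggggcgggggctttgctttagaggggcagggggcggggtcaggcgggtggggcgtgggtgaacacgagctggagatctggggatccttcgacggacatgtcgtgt
Lipa: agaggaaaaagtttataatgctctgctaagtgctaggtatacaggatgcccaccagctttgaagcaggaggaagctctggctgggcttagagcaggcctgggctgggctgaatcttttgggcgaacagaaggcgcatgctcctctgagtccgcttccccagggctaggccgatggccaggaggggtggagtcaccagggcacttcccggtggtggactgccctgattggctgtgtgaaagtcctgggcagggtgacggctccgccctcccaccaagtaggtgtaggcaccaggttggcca
Acp2: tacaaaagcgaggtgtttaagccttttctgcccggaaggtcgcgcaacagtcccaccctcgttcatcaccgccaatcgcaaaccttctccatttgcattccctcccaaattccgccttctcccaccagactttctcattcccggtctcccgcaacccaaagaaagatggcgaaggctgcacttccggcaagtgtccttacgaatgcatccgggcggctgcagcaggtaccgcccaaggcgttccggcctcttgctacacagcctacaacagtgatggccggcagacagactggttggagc
Gla carries the longer motif in 2 places and Cln3 and Mcoln1 in 1 each, while Lamp1 carries 4 copies of CACGTG. The windows of Lipa and Acp2 hold no match to any of the 3 patterns, and the same was true of Galc, Arsb and of all 3 windows of Acp5. Letters in a window do not show that a factor binds there.

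Each array held 1 Cy3-labelled sample, with a 75th percentile of signal from 1199.6 to 2214.5 before scaling, 54.49% to 64.99% of probes above background and no saturated spot. Values are log2 normalised signal, and differences are log2 differences ± SE of the limma fit across all genes. That fit does not pair the arrays of an experiment, and results with the experiment as a block are named as such. A gene was called where its Benjamini-Hochberg adjusted p was under 0.01 and its change over 2-fold. Well above background on all 12 arrays were also all 10 microglia markers, while Gja1 and Sox9 of astrocytes, Pdgfra of oligodendrocyte precursors, Cd3d and Cd3g of T cells, Lum of fibroblasts and Tek of endothelium were not above background on any array. Of the marker lists, 4 of 10 astrocyte, 6 of 9 oligodendrocyte lineage, 3 of 5 neuron, 5 of 7 T cell, 3 of 6 fibroblast and mural and 2 of 5 endothelial genes were above background on every array. The summed signal of the microglia markers ran from 1060000 to 1190000 in Th1, from 1120000 to 1540000 in Th17 and from 1090000 to 1410000 in untreated arrays. That of the 9 oligodendrocyte lineage markers ran from 7250 to 8930 in Th1, from 11100 to 17500 in Th17 and from 13600 to 29700 in untreated arrays, with the highest value on untreated 14, and that of the 7 T cell markers from 7470 to 8640, 6550 to 11100 and 9830 to 11200. The 10 astrocyte markers summed to between 4230 and 5830 in Th1, 4160 and 11900 in Th17 and 4990 and 12100 in untreated arrays. The 5 neuron markers gave 4240 to 5600, 5880 to 10800 and 6110 to 16200, the 6 fibroblast and mural markers 3030 to 4780, 2250 to 3390 and 2300 to 3790, and the 5 endothelial markers 6490 to 10700, 6700 to 10400 and 8710 to 12000, in the same order of groups. Single markers called from untreated to Th1 went both ways in several lists. Between these groups 7.49% of all genes were called higher and 7.88% lower. In the oligodendrocyte lineage 1 was called higher (Mag, 2.06) and 2 lower (Mbp, -1.6, and Cspg4, -4.24). Among T cell markers 1 was called higher (Lck, 2.35) and 2 lower (Cd5, -1.31, and Cd28, -5.28). For microglia 3 were called higher (P2ry12, 1.61, Aif1, 1.18, and Ptprc, 1.04) and 3 lower (Cx3cr1, -6.31, Trem2, -2.5, and Tmem119, -2.29). For neurons 1 was called higher (Syn1, 1.78) and 1 lower (Rbfox3, -2.44, above background on 0 Th1 arrays). The only astrocyte marker called was lower (Fabp7, -2.24), and no fibroblast, mural or endothelial marker was called. The part of these cells in the results was not tested. In such bulk RNA fewer cells of a type and less RNA per cell cannot be told apart.

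The first comparison asks what factors from Th1 cells do to lysosomal transcripts of microglia. After Th1 supernatant 3 of the 33 genes fell by over 2-fold, the hydrolases Lipa, Galc and Arsb, and 1 rose, the phosphatase Acp2. The other 29 were not called by limma, among them all 7 measured membrane proteins (2 of these at an unadjusted p under 0.05, which 51.7% of all genes had in this comparison). In this comparison 7.49% of all genes were called higher and 7.88% lower, so that 1 of 33 (3.03%) lies below the first share and 3 of 33 (9.09%) close to the second. The median difference of the 33 genes was -0.16 (quartiles -0.78 and 0.29) beside -0.06 for all genes, and it was 0.01 when arrays were scaled to their 75th percentile without quantile normalisation, so that no common direction can be given.

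**Figure D1:**
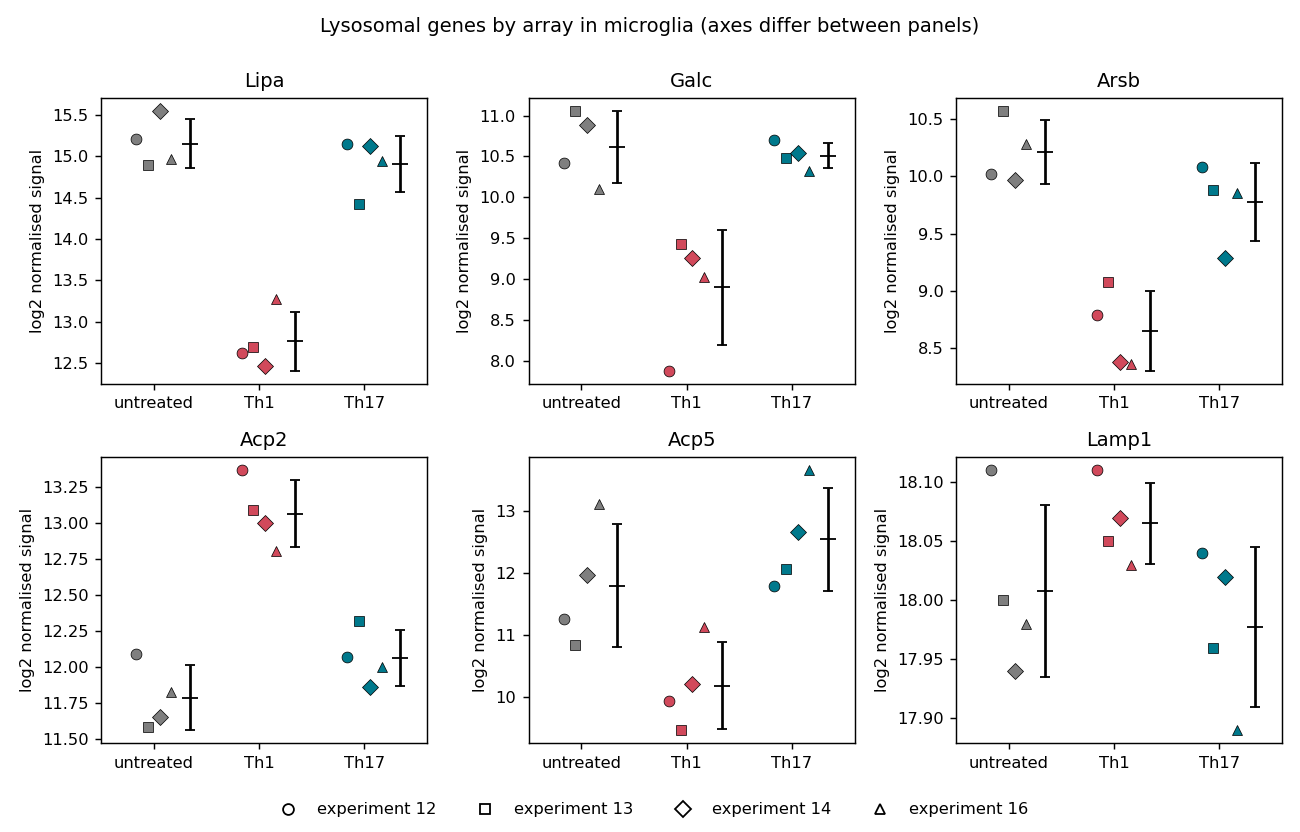
Log2 normalised signal of Lipa, Galc, Arsb, Acp2, Acp5 and Lamp1 on each array. Columns are the 3 groups, each symbol is 1 array with its shape giving the experiment, and the bar is the mean ± SD of 4 arrays. The 4 Th1 arrays of Lipa lie between 12.46 and 13.28, below all untreated arrays at 14.89 to 15.55, while the panel of Lamp1 spans 17.89 to 18.11 over all arrays.

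Lipid handling held the largest fall. Lipa, the acid lipase that frees cholesterol and fatty acids from cholesteryl esters and triglycerides in the lysosome, stood at 15.21, 14.89, 15.55 and 14.96 on the untreated arrays of experiments 12, 13, 14 and 16. On the Th1 arrays it stood at 12.62, 12.7, 12.46 and 13.28, and on the Th17 arrays at 15.15, 14.42, 15.12 and 14.94. All 4 Th1 arrays lay far below all 8 others, and the untreated and Th17 arrays overlapped. Lipa fell by 2.39 ± 0.22 against untreated (5.24-fold, adjusted p = 7.1e-06), with -2.43, -2.97 and -1.68 within slides 1, 2 and 3. Npc2, a small protein that passes cholesterol on to the membrane transporter NPC1, rose by less than 2-fold, by 0.61 ± 0.11 (adjusted p = 0.000995). Npc2 ran from 16.97 to 17.31 in Th1 and from 16.38 to 16.71 in untreated arrays, without overlap. Ppt1, which removes fatty acids from proteins, differed by 0.30 ± 0.12 (adjusted p = 0.0606).

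Of the 8 genes of sphingolipid breakdown 1 was called lower, beside 7.88% of all genes. Galc, which removes galactose from galactosylceramide, a main lipid of myelin, stood at 10.42, 11.06, 10.88 and 10.1 on the untreated arrays. Its Th1 values were 7.88, 9.43, 9.26 and 9.03 and its Th17 values 10.7, 10.48, 10.54 and 10.32. The Th1 arrays again lay below all others, with Th1 12 lowest. Galc fell by 1.71 ± 0.31 (3.28-fold, adjusted p = 0.000969), and the difference was -2.54 in experiment 12 and between -1.63 and -1.07 in the other three. Hexa, the alpha subunit of the hexosaminidase that trims GM2 ganglioside, fell by 0.79 ± 0.14 (adjusted p = 0.000913), under 2-fold, from 16.71 to 17.26 in untreated arrays to between 16.01 and 16.4. Glb1, the beta-galactosidase of GM1 ganglioside, and Arsa, the sulfatase of the myelin lipid sulfatide, differed by -0.33 ± 0.11 and -0.33 ± 0.16 (adjusted p = 0.0257 and 0.113). Gla, the alpha-galactosidase, and the sphingomyelinase Smpd1 differed by -0.16 ± 0.14 and 0.12 ± 0.12. On the other side of 0 were the acid ceramidase Asah1, at 0.52 ± 0.21 (adjusted p = 0.0689), and Psap, the precursor of the saposins that help these enzymes reach their lipids, at 0.37 ± 0.23 (adjusted p = 0.223). Asah1 was lowest in experiment 16 in each of the 3 groups.

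Of the 6 genes that break down glycosaminoglycans 1 was called lower, beside 7.88% of all genes. This group also held the members whose probes differed most. Arsb, the sulfatase that acts on dermatan and chondroitin sulfate, stood at 10.02, 10.57, 9.97 and 10.28 in untreated arrays, at 8.79, 9.08, 8.38 and 8.36 in Th1 arrays and at 10.08, 9.88, 9.29 and 9.85 in Th17 arrays. No Th1 array reached the lowest of the others. Arsb fell by 1.56 ± 0.21 (2.95-fold, adjusted p = 0.000136). A second probe for the same transcript differed by -0.71 ± 0.19 (adjusted p = 0.00906), in the same direction but under 2-fold. Gusb, the beta-glucuronidase, fell by 0.83 ± 0.15 (adjusted p = 0.00102), from 15.95 to 16.31 in untreated arrays to between 14.89 and 15.56. Idua, the iduronidase, differed by -0.85 ± 0.28 (adjusted p = 0.0291), with -1.72 in experiment 14 and -0.17 in experiment 16. Its second probe differed by only -0.16 ± 0.11. Idua passed the call without untreated 16, at -1.06 (adjusted p = 0.00938). The glucosaminidase Naglu and the iduronate sulfatase Ids, both of heparan sulfate breakdown, differed by -0.22 ± 0.29 and 0.16 ± 0.14.

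Sgsh, the sulfamidase of heparan sulfate breakdown, had a pair of probes that moved in opposite directions. The brighter probe, which stands for the gene here, gave 17.23, 17.04, 16.34 and 17.11 in untreated arrays and 17.97, 17.42, 17.64 and 17.41 in Th1 arrays, a difference of 0.68 ± 0.21 (adjusted p = 0.0212, not called). The dimmer probe gave 12.78, 12.39, 12.04 and 12.19 in untreated arrays and 10.69, 10.32, 9.75 and 10.73 in Th1 arrays. It fell by 1.98 ± 0.28 (adjusted p = 0.00015), and its Th17 values of 12.83, 11.65, 12.29 and 12.17 overlapped the untreated ones. Neither probe's groups overlapped between Th1 and untreated. The files give both probes the same accession, and both were above background on all 12 arrays. In the RefSeq gene table the Sgsh locus overlaps Card14 and Slc26a11, and which transcripts each probe reads was not tested. No direction is given for Sgsh.

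**Figure D2:**
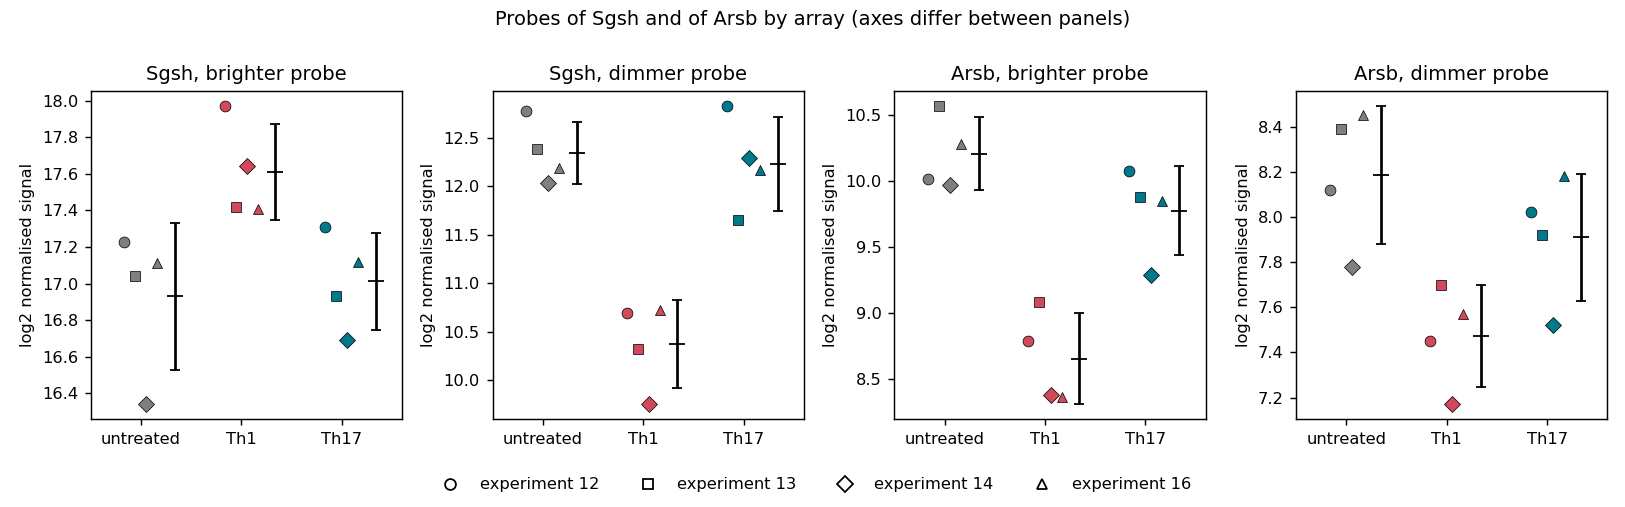
Log2 normalised signal on each array for the brighter and dimmer probe of Sgsh and of Arsb. Columns are groups, symbol shapes are experiments, and bars are the mean ± SD of 4 arrays. From untreated to Th1 the brighter Sgsh probe differs by 0.68 and the dimmer by -1.98, while the probes of Arsb differ by -1.56 and -0.71.

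None of the 4 genes of glycogen and glycoprotein breakdown was called by limma, with 2 at an unadjusted p under 0.05 (51.7% of all genes). Man2b1, the lysosomal alpha-mannosidase, fell by 0.82 ± 0.12 (1.76-fold, adjusted p = 0.000207), from 16.09 to 16.34 in untreated arrays to between 15.19 and 15.66 in Th1 arrays. Gaa, the acid glucosidase of glycogen, differed by -0.39 ± 0.13 (adjusted p = 0.0264), and by -0.1 with scaling to the 75th percentile alone. The beta-mannosidase Manba and the sialidase Neu1 differed by -0.21 ± 0.14 and 0.13 ± 0.14.

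The peptidase and the phosphatases moved in both directions. Acp2, the lysosomal acid phosphatase made by most cells, stood at 12.09, 11.58, 11.65 and 11.83 in untreated arrays, at 13.37, 13.09, 13 and 12.81 in Th1 arrays and at 12.07, 12.32, 11.86 and 12 in Th17 arrays. All Th1 arrays were above all others. Acp2 rose by 1.28 ± 0.15 (2.43-fold, adjusted p = 5.35e-05), and its second probe by 1.43 ± 0.17 (adjusted p = 4.71e-05). The Acp2 locus overlaps Ddb2 and Nr1h3 in the gene table. Acp5, the tartrate-resistant phosphatase known from osteoclasts and activated macrophages, stood at 11.26, 10.83, 11.97 and 13.1 in untreated arrays and at 9.93, 9.46, 10.2 and 11.13 in Th1 arrays. Its untreated SD of 0.99 was the largest of all 33 genes (median 0.18), and in each group experiment 16 was highest. The groups overlapped, since Th1 16 lay above untreated 13, yet Th1 was lower in each of the 4 experiments, with differences of -1.33, -1.37, -1.77 and -1.97. The difference of -1.61 ± 0.54 was not called (adjusted p = 0.0303). With the experiment as a block it was called, at -1.61 ± 0.15 (adjusted p = 4.78e-05), as it was with the slide as a block, at -1.71 (adjusted p = 0.00102). Tpp1, a peptidase that trims tripeptides from protein ends, fell by 0.78 ± 0.14 (adjusted p = 0.000824), from 13.3 to 13.71 in untreated arrays to between 12.62 and 13.06.

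The differences of the membrane proteins lay between -0.22 and 0.46. Lamp1, one of the most abundant proteins of the lysosomal membrane, stood at 18.11, 18, 17.94 and 17.98 in untreated arrays, at 18.11, 18.05, 18.07 and 18.03 in Th1 arrays and at 18.04, 17.96, 18.02 and 17.89 in Th17 arrays. The groups overlapped, and the difference from untreated was 0.06 ± 0.08 after Th1 supernatant, with a 95% interval from -0.11 to 0.24. Cd63, a tetraspanin of late endosomes, differed by -0.02 ± 0.08 (interval -0.20 to 0.16). Lamp2, which also serves in fusion with autophagosomes and in chaperone-mediated autophagy, stood at 15.06, 15.18, 15.03 and 15.03 in untreated and at 15.51, 15.29, 15.51 and 15.38 in Th1 arrays. Its Th17 values of 15.04, 15.09, 15.11 and 14.98 lay with the untreated ones, and the Th1 arrays were above both. Lamp2 rose by 0.35 ± 0.09 (1.27-fold, adjusted p = 0.00682), whereas a probe for another Lamp2 transcript differed by 0.02 ± 0.20. Laptm4a, a small multi-span protein of endosomes and lysosomes, and Mcoln1, a calcium channel of the lysosome, differed by 0.46 ± 0.12 and 0.25 ± 0.12 (adjusted p = 0.0104 and 0.115). Scarb2, the receptor that carries glucocerebrosidase to the lysosome, and the membrane protein Cln3 differed by -0.02 ± 0.19 and -0.22 ± 0.12.

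Neither regulator was called by limma, and both had an unadjusted p under 0.05, as did 51.7% of all genes. Tfeb, the transcription factor that binds the CLEAR element, stood at 10.92, 10.49, 10.71 and 10.7 in untreated arrays, at 10.48, 10.25, 10.07 and 10.4 in Th1 arrays and at 10.88, 10.23, 10.49 and 10.71 in Th17 arrays. The Th1 values were all below the untreated ones but not all below the Th17 ones, with a difference of -0.40 ± 0.15 (adjusted p = 0.0518). Transcript level alone says little of TFEB, which is controlled by its entry into the nucleus. Grn, which encodes progranulin, stood at 17.34, 17.36, 17.08 and 17.07 in untreated, at 17.57, 17.52, 17.4 and 17.51 in Th1 and at 17.3, 17.45, 17.11 and 17.26 in Th17 arrays. Its difference of 0.29 ± 0.11 had an adjusted p of 0.0442.

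With no limit on the fold, 3 of the 33 genes passed the adjusted p of 0.01 upward (9.09%, against 13.9% of all genes) and 7 downward (21.2%, against 16.2%). The risers were Acp2, Npc2 and Lamp2, and the 7 were Lipa, Galc, Arsb, Hexa, Gusb, Man2b1 and Tpp1. With the experiment as a block these counts became 6, or 5 without Sgsh and its opposed probes, and 11 (17.6% and 22.8% of all genes), and with scaling to the 75th percentile alone they became 7 and 7 (15.1% and 14.4%). The 7 that fell under that scaling were the same genes, and the upward count then also took in Ppt1, Laptm4a, Mcoln1 and Grn. All 4 Th1 arrays lay above all 4 untreated arrays for 7 genes, beside 18.8% of all genes. This count is 6 without Sgsh, whose second probe moved the other way. The Th1 arrays lay below all untreated arrays for 11 genes, beside 21.9% of all genes. Of the genes counted, Lamp2, Gaa and Idua each had a second probe on which these groups overlapped. Without experiment 14 the 4 called genes stayed called, with Lipa at -2.15, Galc at -1.75, Arsb at -1.55 and Acp2 at 1.26.

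**Figure D3:**
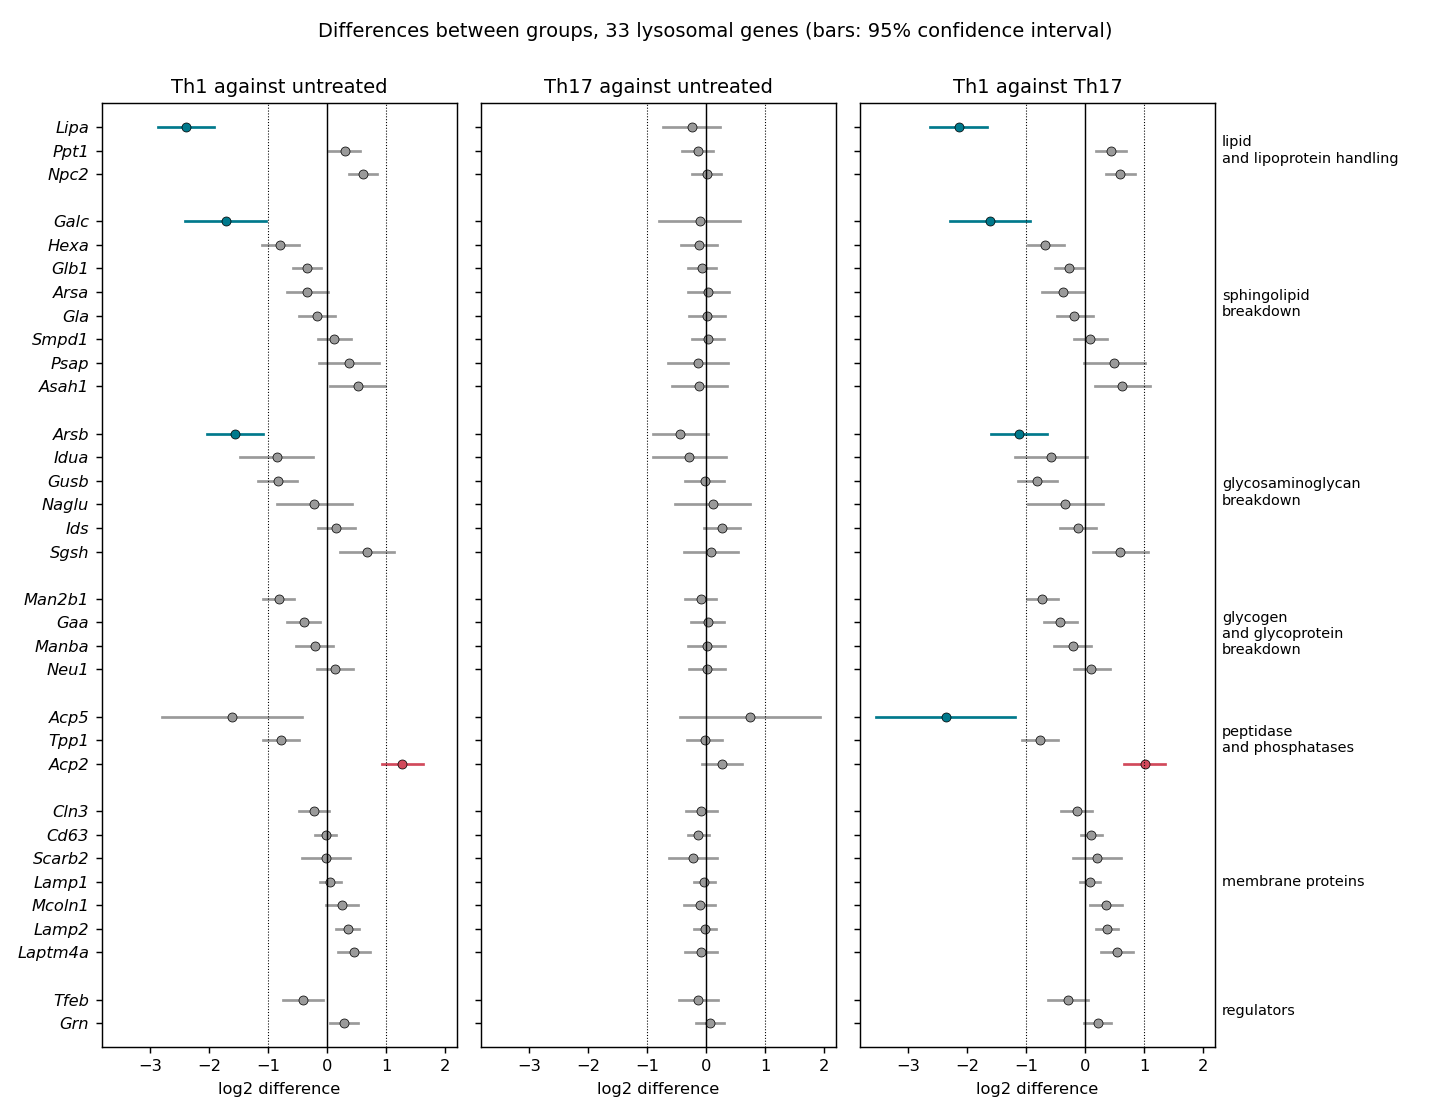
Log2 differences with 95% confidence intervals of the limma fit for the 33 genes, grouped by role, in the 3 comparisons. Red points were called higher, blue points lower and grey points not called, and dotted lines mark a 2-fold change. Against untreated, Lipa at -2.39 and Acp2 at 1.28 bound the Th1 panel, and no point of the Th17 panel is coloured.

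The second comparison asks the same of Th17 supernatant. None of the 33 genes was called by limma in either direction, as was the case for all 19802 genes (0% higher and 0% lower, with or without the limit on the fold). At an unadjusted p under 0.05 stood 0 of the 33 genes and 325 of all genes (1.64%), and with the experiment as a block 3 of the 33 and 1019 of all genes (5.15%), none of them called. No gene of the 33 had Th17 arrays wholly above or below the untreated arrays, which held for 0.53% and 0.449% of all genes. The median difference of the 33 was -0.03, and all 7 membrane proteins lay between -0.22 and -0.02. Lipa, Galc and Acp2, which changed after Th1 supernatant, differed by -0.24 ± 0.22, -0.10 ± 0.31 and 0.27 ± 0.15 after Th17 supernatant. Arsb had the smallest p (0.066, adjusted p = 1), at -0.44 ± 0.21.

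Acp5 was the one gene with a Th17 difference above 0.5 in size. Its Th17 arrays stood at 11.78, 12.06, 12.65 and 13.65, each above the untreated array of its own experiment, by 0.52, 1.23, 0.67 and 0.55. As the experiments themselves spanned more than this, the limma fit gave 0.75 ± 0.54 (adjusted p = 1), and with the experiment as a block 0.75 ± 0.15 (adjusted p = 0.839). With the slide as a block the difference was 0.35, and within slides 1, 2 and 3 it was 0.74, 0.09 and 0.05. The slides mix experiments, so that slide 2 sets Th17 13 against untreated 14. The difference passed no threshold over all genes.

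The third comparison sets the supernatants against each other directly. Against Th17, Th1 arrays were lower for 4 genes, Acp5, Lipa, Galc and Arsb, and higher for 1, Acp2 (12.1% and 3.03% of the 33, beside 7.91% and 6.89% of all genes). Acp5 was lower by 5.12-fold (-2.36 ± 0.54, adjusted p = 0.00438), with -1.86, -2.6, -2.44 and -2.52 in the 4 experiments, and its groups did not overlap. Its second probe gave the same difference of -2.36 ± 0.52. Lipa differed by -2.14 ± 0.22 (4.42-fold lower, adjusted p = 1.91e-05), Galc by -1.61 ± 0.31 (adjusted p = 0.00154) and Arsb by -1.12 ± 0.21 (adjusted p = 0.0014). Acp2 was higher by 1.01 ± 0.15 (adjusted p = 0.000334), at the very edge of the 2-fold limit. A dimmer second probe of Acp2 was higher by 1.31 ± 0.17 (adjusted p = 9.84e-05 by limma). The dimmer Sgsh probe differed by -1.86 ± 0.28 (adjusted p = 0.000251) against 0.60 ± 0.21 for the brighter one.

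With no limit on the fold, 4 genes were higher in Th1 than in Th17 (Acp2, Npc2, Lamp2 and Laptm4a, beside 13.4% of all genes) and 8 were lower (beside 15.8% of all genes), the 4 already named with Hexa, Gusb, Man2b1 and Tpp1. With the experiment as a block 8 were higher and 8 lower (17.2% and 21.9% of all genes), and with scaling to the 75th percentile alone 8 and 6 (15.5% and 13.2%), Hexa and Gusb being the pair no longer past the threshold. Th1 arrays lay wholly above the Th17 arrays for 8 genes, or 7 without Sgsh (18.6% of all genes), and wholly below for 10 (22.6% of all genes). Of the genes counted, Lamp2, Idua and Arsb each had a second probe on which these groups overlapped. This comparison shares its Th1 arrays with the first. The calls of Acp2, Acp5 and Arsb in this comparison depended on single arrays or settings. Acp2 lay just short of 2-fold without Th1 12 (0.9), Th1 13 (1.00), Th17 14 (0.94) or Th17 16 (0.98), without experiment 14 (0.96), and with the slide as a block (0.97). Acp5 missed the adjusted p without Th1 12 (0.0142), Th1 13 (0.015), Th1 14 (0.0115), Th17 14 (0.0125) or Th17 16 (0.0128), or without experiment 14 (0.0354), but passed with the experiment as a block (adjusted p = 8.21e-06). Arsb averaged over both probes was at -0.78 and was not called.

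A further 7 lists place these genes in the lysosome pathway, with values for Th1 against untreated. In that comparison 7.49% of all genes were called higher and 7.88% lower. Of 19 subunits of the V-ATPase, the pump that acidifies the lysosome, 1 rose and 1 fell (median 0.03). The genes are alternative forms of the same membrane subunit: Atp6v0a2 rose by 1.09 ± 0.17 (adjusted p = 0.000319) and Atp6v0a1 fell by 1.79 ± 0.31 (adjusted p = 0.000672). The call of Atp6v0a2 was lost without Th1 12 (1.00) and with normexp on the median spot signal (0.96). Of 28 other hydrolases and activators 3 rose and 1 fell (median -0.03), beside those shares of all genes. Naaa, which cleaves the anti-inflammatory lipid amide palmitoylethanolamide, rose by 6.09 ± 0.21 (68.1-fold, adjusted p = 3.47e-09), far beyond any gene of the 33. Pld4, an endolysosomal exonuclease, rose by 1.36 ± 0.26 (adjusted p = 0.00151). Smpdl3a, a relative of acid sphingomyelinase, fell by 1.09 ± 0.19 (adjusted p = 0.000746). The call of Smpdl3a, near 2-fold, was lost without untreated 14 (-0.93), without Th1 13 (-1) and with scaling to the 75th percentile alone (-0.82).

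Of 27 other membrane proteins and transporters 2 rose and 1 fell (median -0.11), beside 7.49% and 7.88% of all genes. Cd164, a sialomucin of endosomes and lysosomes, rose by 2.56 ± 0.19 (adjusted p = 1.78e-06) and the chloride and proton exchanger Clcn7 by 1.6 ± 0.24 (adjusted p = 0.000239), while the channel Tpcn1 fell by 2.12 ± 0.19 (adjusted p = 5.45e-06). Of 9 genes that sort hydrolases to the lysosome 1 rose and 1 fell (median 0.01), beside the same shares of all genes. M6pr, a mannose 6-phosphate receptor, rose by 1.28 ± 0.17 (adjusted p = 9.06e-05). Sort1, encoding sortilin, a sorting receptor that does not need that sugar tag, fell by 4.24 ± 0.36 (18.9-fold, adjusted p = 3.74e-06), and by 1.65 ± 0.17 on its second probe. None of 13 genes of fusion with the lysosome (median 0.02) and none of 16 MiT/TFE and nutrient sensing genes (median -0.25) was called by limma. Past the adjusted p alone were 2 fusion genes, all upward, and 6 MiT/TFE and nutrient sensing genes, 2 upward and 4 downward. The 27 membrane proteins and transporters had 9 upward and 5 downward, and the 28 other hydrolases and activators 5 and 7. For the V-ATPase the counts were 3 and 4, for sorting 2 and 2, and for autophagy 1 and 5. Of all genes 13.9% passed the adjusted p upward and 16.2% downward. At an unadjusted p under 0.05 stood 6 fusion genes and 10 MiT/TFE and nutrient sensing genes, beside 51.7% of all genes. Of 17 autophagy genes 2 fell (median -0.26), beside 7.88% of all genes. These were Sqstm1, the receptor p62, by 1.52 ± 0.40 (adjusted p = 0.00913) and Gabarapl1 by 1.31 ± 0.21 (adjusted p = 0.000372). The call of Sqstm1 was lost in 14 of 26 alternatives, among them each of the 4 Th1 arrays and untreated 12, 14 and 16 left out in turn (adjusted p = 0.0122 to 0.0274). Without it 1 of the 17 fell. None of the 129 genes of the 7 lists was called by limma after Th17 supernatant. An unadjusted p under 0.05 was seen there for 3 of them, beside 1.64% of all genes. Naaa differed after Th17 supernatant by 0.96 ± 0.21 (adjusted p = 1).

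**Figure D4:**
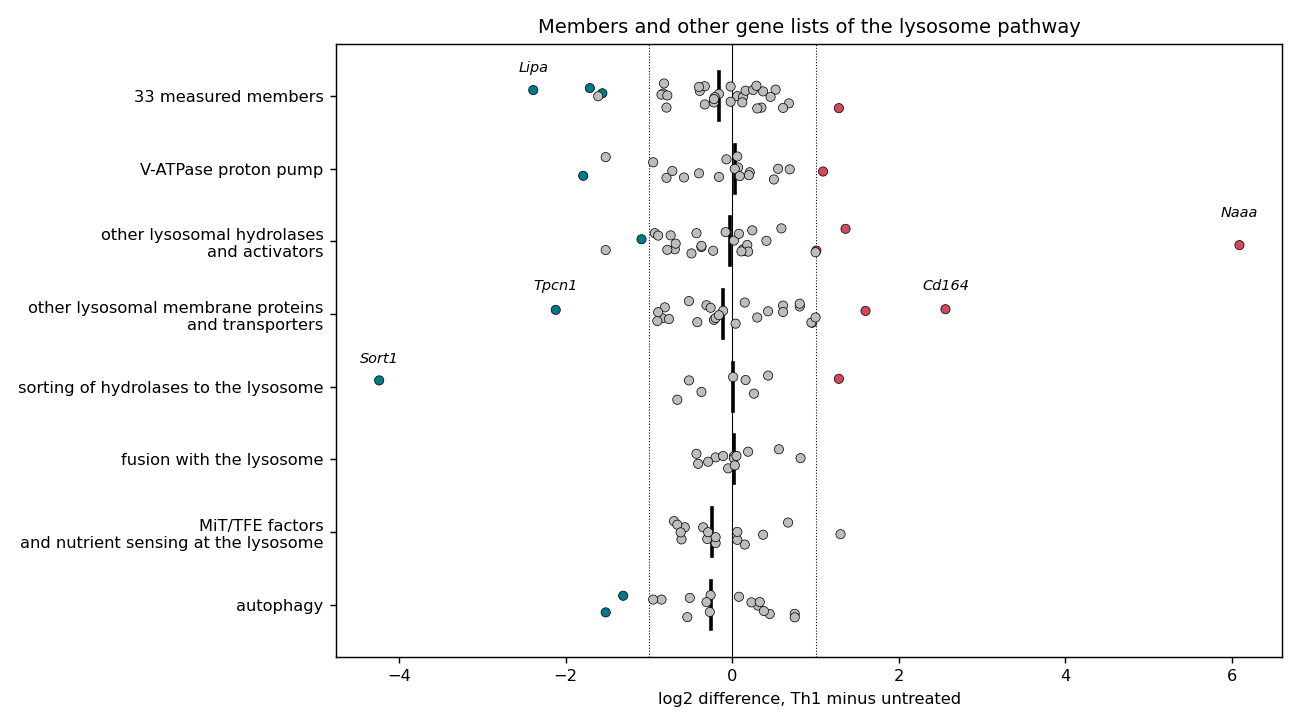
Log2 differences between Th1 and untreated arrays for the 33 genes and for 7 further lists of the lysosome pathway. Each point is 1 gene, red where called higher, blue where called lower and grey where not called, the heavy bar is the median of the list and dotted lines mark a 2-fold change. Naaa at 6.09 and Sort1 at -4.24 lie outside the range of the 33 genes, which runs from -2.39 to 1.28.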

How the data were processed

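Cy3-labelled RNA of 12 microglia cultures (3 groups of 4 independent experiments) was hybridised to 1-colour Agilent arrays on 3 slides, each with all groups. Spot intensity values are deposited as scanner output, which the authors extracted with Agilent Feature Extraction 10.7.3.1 (processed signal, background-subtracted, with multiplicative detrending per the file headers). The deposited value table holds log2 values that matched, over 19915 probes with r of at least 0.99999, log2 signal scaled to the 75th percentile and centred on each probe's median, with column medians from -0.225 to 0.18. It served as an alternative.

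After the study's methods, spots marked as outliers were left out (103 to 230 of 43020 per array), spots of a probe averaged geometrically, and arrays quantile-normalised, scaled to a 75th percentile of 1500, floored at 15 and put on the log2 scale. The methods' rules on spot quartiles and pixel variation were not applied. Probes well above background on at least 4 arrays were kept (24287 probes of 19802 genes). Probe accessions gave a symbol through RefSeq for 27234 of 39429 probes (69.1%). Probes without a symbol were grouped by their accession. Each such accession counts as a gene among the 19802 and in every share of all genes tested. The brightest kept probe, blind to group, stood for a gene. Limma 3.58.1 in R 4.3.3 fitted 1 mean per group over 12 arrays, with Benjamini-Hochberg adjustment over all genes. The reported p-values measure the spread of the 4 experiments within each group and do not use the pairing by experiment. Differences in level between experiments add to that spread. For Th17 against untreated 1.64% of all genes had an unadjusted p under 0.05, and 5.15% with the experiment as a block. The fit was tested on simulated data in which the noise of each array was drawn on its own. That test cannot show how the fit handles deviations shared by the arrays of an experiment.

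Arrays of the same experiment number come from the same independent experiment in the labels, and they deviated together from their group means (r = 0.24 to 0.63, against at most 0.12 for other numbers), so the numbers pair the samples. The experiment as a block was an alternative, as were the slide as a block, other scalings and background corrections, filters, floors, probe rules and thresholds, and leaving out each array in turn. Without experiment 14 and normexp on the median spot signal were added after seeing the data.

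Named were all listed genes, with values on every array for those called in any comparison and for Tfeb, Lamp1, Lamp2 and Grn, and up to 4 called genes of each further list by size, of which 1 is counted but not reported here. Values for genes outside this rule (Hexa, Gusb and the like) are given as ranges, and the array values of both Sgsh probes were chosen after seeing them. Those of Acp5 fall under the rule through its call against Th17, though it was not called against untreated. The genes and lists were chosen with earlier results of these data known. Promoter sequences were taken from RefSeq on GRCm38.p6.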

Additional observations from a re-analysis of the deposited data

Results flagged for a closer look

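Of 99 groups of 4 arrays (33 genes in 3 groups), 4 held an array whose gap to the nearest of the others was past Dixon's 95% critical value as a share of the group's range, and chance flags about 1 in 20. Gusb stood at 16.31 on untreated 13, with the other untreated arrays at 15.95 to 16. Neu1 stood at 15.05 on untreated 14, against 14.71 to 14.75. Asah1 stood at 14.68 on Th1 16, against 15.12 to 15.2, and Laptm4a stood at 14.48 on Th17 16, against 14.74 to 14.76. In experiment 16 both Asah1 and Laptm4a were lowest in all 3 groups. None of these genes was called in any comparison.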

How the results depend on the processing

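Against untreated, the calls of Lipa (-2.56 to -2.15), Galc (-1.89 to -1.38), Arsb (-1.7 to -1.13) and Acp2 (1.18 to 1.45) held in all 26 alternatives. With any fold accepted, 3 genes were higher and 7 lower in Th1 than in untreated arrays, and 4 were higher and 8 lower than in Th17 arrays, as the 2-fold limit was the only change. The median of the 33 genes was 0.01 in place of -0.16 and -0.14 with scaling to the 75th percentile alone and with the deposited value table, in both Th1 comparisons. The cause was not tested. These scalings moved the median of all genes by under 0.05. Acp2 was not called against Th17, leaving 0 genes higher, with the slide as a block, with normexp on the median spot signal and without experiment 14, as its change lay just under 2-fold.

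Leaving out 1 array at a time gave 0 to 1 genes higher and 3 to 4 lower than in Th17 arrays, and 3 to 4 lower than in untreated arrays. The median then ran from -0.23 to -0.08 against untreated, from -0.24 to -0.08 against Th17, and from -0.08 to 0.01 for Th17 against untreated. With the experiment as a block, 4 genes were lower in Th1 than in untreated arrays, as Acp5 was added (adjusted p = 4.78e-05), and the block changed no other call of the 33 genes at the 2-fold limit. Acp5 against Th17 lost its call with no filter on dim probes (adjusted p = 0.0157), and Arsb against Th17 with normexp on the median spot signal (-0.89) and with the mean of its probes (-0.78). None of the 33 genes was called by limma in Th17 against untreated under any of these alternatives, and 0 had an unadjusted p under 0.05 in the reported fit (3 with the experiment as a block). Normexp on the mean spot signal was not run, since the scanner output read here held no mean spot signal. The number of arrays limits the precision.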
